A study of Arabidopsis thaliana with 5 samples.

Results

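The regions described here are the AtSMOS1 peaks that were called in replicate 2 alone. They were chosen by their positions in the peak lists, as the peaks of AtSMOS1-GFP replicate 2 on chromosomes 1 to 5 that share no base with any peak of AtSMOS1-GFP replicate 1. Of the 6934 AtSMOS1 peaks of replicate 2, 2697 (38.9%) met this rule, and the other 4237 overlapped a replicate 1 peak by 1 bp or more. The 2697 replicate 2 only peaks lay nearest to 2473 genes, of which 1794 were nearest to no replicate 1 peak. Their summits gathered at transcription start sites (TSSs), and among their nearest genes were those of the auxin repressor IAA6, the stress regulators WRKY40, WRKY18 and WRKY60, the jasmonate repressors JAZ1 and JAZ10 and the flowering repressor SVP. Of these genes, WRKY40, WRKY18 and JAZ10 were also nearest to replicate 1 peaks. Of the 2697, 45 (1.67%) overlapped a peak of SCL28, compared with 4.83% of all 6934 replicate 2 peaks.

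The series is a ChIP-Seq study of Arabidopsis thaliana, ecotype Col-0, in which chromatin of whole seedlings grown on agar was immunoprecipitated with an anti-GFP antibody. The line labelled SNOS1-GFP carries AtSMOS1 fused to GFP under its own promoter, and the line labelled E1M-GFP carries SCL28 fused to GFP, with 2 replicates each. The promoter of the SCL28-GFP line is given as that of RPS5A in one place of the study's text and as that of SCL28 in another. The labels give long days as the growth condition, and the study's methods give continuous light. Total chromatin of WT Col-0 seedlings without a transgene, 1 sample, served as the input. The labels do not say whether replicates came from separate sowings. Every value comes from whole seedlings, so that a site bound in a few cells and a site bound weakly in many cannot be told apart.

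AtSMOS1 is a transcription factor of the AP2 class, named after rice SMALL ORGAN SIZE1. SCL28 is a member of the GRAS family, whose proteins act on transcription often through DNA-binding partners. In rice, SMOS1 and a GRAS protein form a complex that regulates organ size and responses to auxin and brassinosteroid. In Arabidopsis, progress from G2 phase to mitosis is set by cyclin-dependent kinases (CDKs), and the small SIAMESE-RELATED (SMR) and KIP-RELATED PROTEIN (KRP) families inhibit them. ChIP-Seq finds where such factors sit on chromatin as regions with more reads than the local background, and a peak is recorded only when this excess passes a threshold in that sample. A site just under the threshold in 1 replicate is therefore absent from that replicate's list, and its enrichment there cannot be read from the list.

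Inside the lists of replicate 2, the individual peaks bear AtSMOS1's label in the SCL28 list and SCL28's label in the AtSMOS1 list. By position, however, 61.1% of the 6934 peaks listed for AtSMOS1 replicate 2 overlapped a peak of AtSMOS1 replicate 1, and 4.53% overlapped a peak of SCL28 replicate 1. The 4.53% is bounded by the short SCL28 list and says little by itself. For SCL28 replicate 2, with 396 peaks, 90.9% overlapped a peak of SCL28 replicate 1, and 62.6% overlapped a peak of AtSMOS1 replicate 1. The lists were therefore used as the samples are labelled. On chromosomes 1 to 5, the lists held 5438 AtSMOS1 peaks in replicate 1, 488 and 396 SCL28 peaks in replicates 1 and 2, and 5695 peaks for the input. The narrowest peak was 109 bp long in AtSMOS1 replicate 1 and 177 bp in replicate 2. The lists hold no read counts, so that the depth behind a single peak is unknown. For the whole libraries, the study's reporting summary gives more uniquely mapped reads for AtSMOS1 replicate 2 than for replicate 1. Whether this difference bears on the replicate 2 only peaks was not tested.

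The sequences below are printed because they are the clearest feature that joins a small set of the replicate 2 only peaks to SCL28. They show an exact match to the motif that the study found in the common peaks of SCL28 and AtSMOS1, named here the motif of the study. The motif was searched on both strands in the 200 bp centred on each summit, and 11 of the 2697 windows held it. The match at IAA4 is not shown, because the bases printed around it would reach into an exon. Each line gives the nearest gene, the position on TAIR10, the strand that reads as the motif and the bases 5′ to 3′, from the RefSeq copy of the genome, with the motif in capitals.
AT3G05705, chr3:11107227-11107268, plus strand: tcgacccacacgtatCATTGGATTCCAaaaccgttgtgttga
AT1G31310, chr1:11200998-11201039, minus strand: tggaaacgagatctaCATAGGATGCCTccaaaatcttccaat
AT3G04595, chr3:8597181-8597222, plus strand: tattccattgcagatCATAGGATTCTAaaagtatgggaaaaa
AT2G08150, chr2:11359027-11359068, plus strand: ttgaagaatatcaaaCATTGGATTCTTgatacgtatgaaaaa
AT1G80700, chr1:30331664-30331705, minus strand: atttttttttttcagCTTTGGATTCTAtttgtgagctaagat
AT5G07820, chr5:2501544-2501585, plus strand: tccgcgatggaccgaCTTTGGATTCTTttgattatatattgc
AT5G63940, chr5:25587769-25587810, minus strand: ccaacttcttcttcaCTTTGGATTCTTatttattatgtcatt
AT3G18950, chr3:6534048-6534089, plus strand: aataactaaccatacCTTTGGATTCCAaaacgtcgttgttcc
AT5G35430, chr5:13661801-13661842, plus strand: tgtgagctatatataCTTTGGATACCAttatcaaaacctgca
AT5G16230, chr5:5303870-5303911, plus strand: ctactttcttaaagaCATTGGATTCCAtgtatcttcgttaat
The first 7 of these peaks overlapped an SCL28 peak in both SCL28 replicates. The peak at AT3G18950 overlapped an SCL28 peak in SCL28 replicate 1 alone, that at AT5G35430 in SCL28 replicate 2 alone, and that at AT5G16230 in neither.

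The following stretches are centred on the summits of 3 replicate 2 only peaks that overlapped an SCL28 peak in both SCL28 replicates and did not hold the whole motif in the summit window. They are examples that hold GGATNC, the core of that motif, which the capitals mark on either strand. Not all such peaks hold it. At ACT12 and AT2G40460, which had the highest SCL28 fold enrichment among the peaks shared with both SCL28 replicates, the same stretch holds no core.
AT5G42530, chr5:17005582-17005702, plus strand: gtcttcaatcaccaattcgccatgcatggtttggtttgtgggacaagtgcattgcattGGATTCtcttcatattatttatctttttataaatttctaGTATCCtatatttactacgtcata
AT1G50660, chr1:18770651-18770771, plus strand: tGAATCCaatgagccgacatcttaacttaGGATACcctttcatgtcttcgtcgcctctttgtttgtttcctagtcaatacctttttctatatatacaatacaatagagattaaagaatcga
AT5G58930, chr5:23796588-23796708, plus strand: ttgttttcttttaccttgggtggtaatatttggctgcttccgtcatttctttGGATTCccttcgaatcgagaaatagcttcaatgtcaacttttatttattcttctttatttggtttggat
The G-box CACGTG, the palindrome read by many basic helix-loop-helix and bZIP factors, was much more frequent than the motif of the study at the replicate 2 only summits. The next lines show it, in capitals, in the replicate 2 only peaks at WVD2, which encodes a microtubule-associated protein of the TPX2 family, at AT1G05870, and at SPDS1, which encodes spermidine synthase.
WVD2, chr5:10674338-10674383, plus strand: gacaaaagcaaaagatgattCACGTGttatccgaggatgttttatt
AT1G05870, chr1:1773807-1773852, plus strand: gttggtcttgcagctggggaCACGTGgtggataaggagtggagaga
SPDS1, chr1:8420053-8420098, plus strand: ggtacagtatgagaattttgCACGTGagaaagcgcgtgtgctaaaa

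The replicate 2 only peaks were the weaker ones of the replicate 2 list. These values belong to the lists that chose the peaks and are given as a description. Their fold enrichment over the local background, taken at the summit, ranged from 1.78 to 5.22 with a median of 2.97, compared with 1.71 to 29.1 and a median of 3.73 for the peaks found in both replicates. Their −log10 q, where q is the p value corrected for multiple testing by the peak caller, had a median of 4.4 and a highest value of 18.1, compared with 7.97 and 244 for peaks in both replicates. They were also narrower, with a median width of 234 bp against 330 bp. Of the 1000 replicate 2 peaks with the highest −log10 q, 21 were replicate 2 only, and of the 1000 with the lowest, 743 were. Both classes overlapped widely all the same, since 1062 of the 2697 replicate 2 only peaks (39.4%) reached a −log10 q of 5, as did 3399 of the 4237 others (80.2%).

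**Figure D1:**
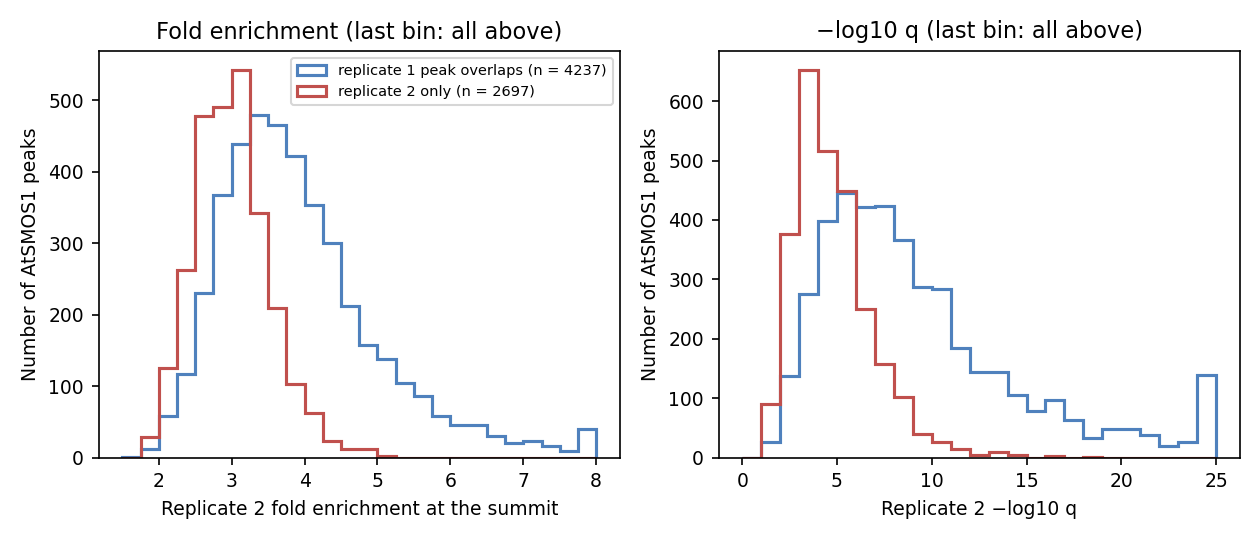
Number of AtSMOS1 replicate 2 peaks by fold enrichment (left) and by −log10 q (right), for the 2697 replicate 2 only peaks in red and the 4237 peaks that overlap a replicate 1 peak in blue. The red curves lie to the left of the blue ones, and no red peak exceeds a fold enrichment of 5.22, whereas 493 blue peaks do.

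At the edge of the rule, 7 replicate 2 only peaks lay within 10 bp of a replicate 1 peak, and 4 peaks of the other class were included by an overlap of 10 bp or less. Just inside was the peak at AT4G30600, chr4:14941132-14941389, with a fold enrichment of 2.56, which lay 2 bp from a replicate 1 peak with a fold enrichment of 3.26. The peak at the homeobox gene HAT1, with a fold enrichment of 2.33, stopped 8 bp short of a replicate 1 peak with 3.38. Just outside was the peak at AT4G03420, with a fold enrichment of 2.66, which shared 3 bp with a replicate 1 peak of 3.18, and the peak at AKINBETA1, a regulatory subunit of the SnRK1 kinase, with 3.49, which shared 9 bp with one of 3.55. Such close cases were few. A replicate 1 peak lay within 200 bp of 85 replicate 2 only peaks (3.15%) and within 1000 bp of 593 (22%). The median gap to the nearest replicate 1 peak was 4060 bp, the quartiles were 1204 and 12249 bp, and 796 peaks (29.5%) had no replicate 1 peak within 10000 bp. Another replicate 2 only peak lay within 1000 bp of 286 of them (10.6%).

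**Figure D2:**
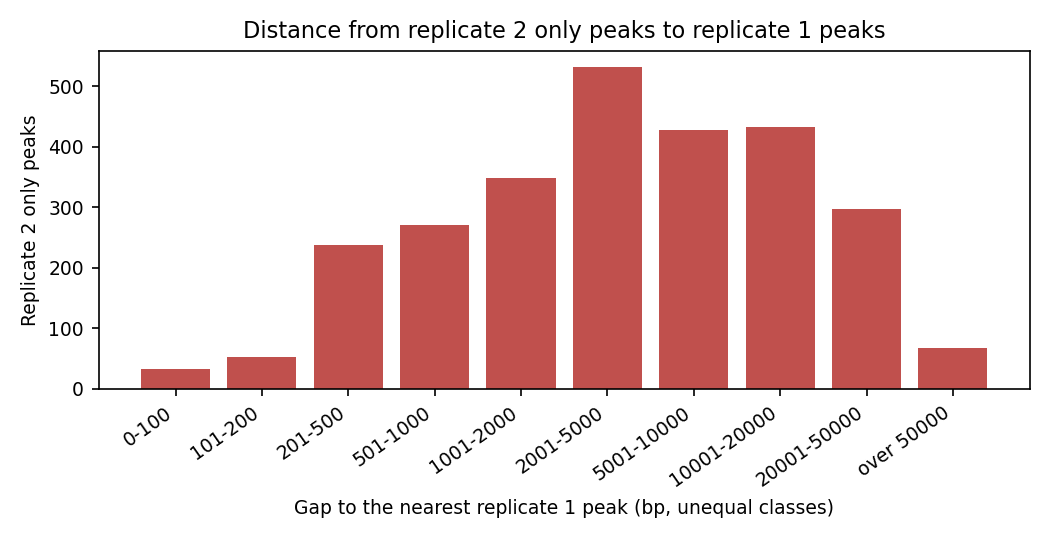
Number of replicate 2 only peaks by the gap in bp to the nearest AtSMOS1 replicate 1 peak, in classes of unequal width that are labelled under the bars. Most bars lie beyond 500 bp, with 532 peaks between 2001 and 5000 bp and 32 within 100 bp.

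By position, the replicate 2 only peaks lay mostly in promoters and at gene starts. A summit within 1 kb upstream of a TSS was found for 1302 of 2697 peaks (48.3%, 95% exact confidence interval (CI) 46.4 to 50.2%), compared with 1981 of 4237 peaks in both replicates (46.8%, CI 45.2 to 48.3%). This difference of 1.52 percentage points did not pass the test (two-sided Fisher's exact test, adjusted p = 0.218 over 5 tests), and with promoters of 500 bp it did, with 34.5% against 31.5% (exact test, adjusted p = 0.0156). With promoters of 2 kb the direction turned, with 64.7% against 65.0% (exact test, adjusted p = 0.836). A summit inside an annotated gene was more frequent among the replicate 2 only peaks, with 1075 of 2697 (39.9%, CI 38 to 41.7%) compared with 1421 of 4237 (33.5%, CI 32.1 to 35%, two-sided Fisher's exact test, adjusted p = 2.68e-07). When both classes were limited to a −log10 q of at least 5, the shares inside genes were 36.9% and 33.1%, and the difference no longer passed (exact test, adjusted p = 0.059). Each test treats peaks as independent and covers counting error only, and no replicate samples enter it.

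Most of the summits inside genes lay in exons outside coding sequence, which held 839 replicate 2 only summits (31.1%), while coding exons held 110 (4.08%) and introns 126 (4.67%). Among peaks in both replicates, these shares were 27.1%, 2.12% and 4.32%. In the input list, by contrast, 42.8% of the summits lay in coding exons. The median distance from the summit to the nearest TSS was 404 bp for the replicate 2 only peaks and 547 bp for the peaks in both replicates. The bin from 100 to 1 bp upstream of the TSS held 12.7% of the replicate 2 only summits and the first 100 bp from the TSS onward held 12.4%, compared with 11.6% and 10% for peaks in both replicates. Outside genes, promoters and the 1 kb after a gene end lay 365 replicate 2 only summits (13.5%).

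**Figure D3:**
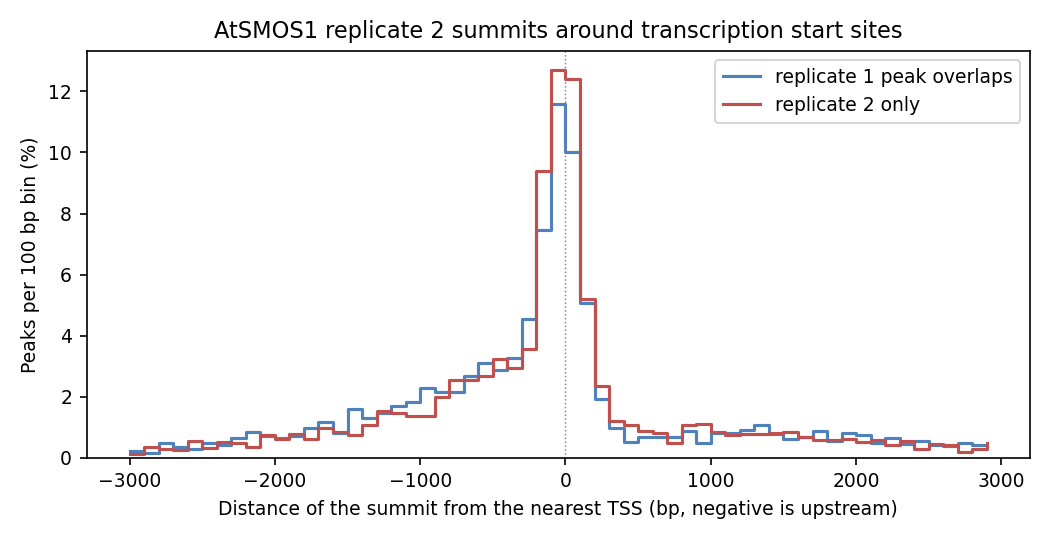
Share of AtSMOS1 replicate 2 peaks in each 100 bp bin of the distance between the summit and the nearest TSS, in bp, for replicate 2 only peaks (red) and peaks that overlap a replicate 1 peak (blue). Both curves peak at the TSS, where the red one reaches 12.7% per bin and the blue one 11.6%.

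The replicate 2 only peaks were spread over the genome, from 19.6 per Mb on chromosome 2 to 24.5 per Mb on chromosome 1. They made up 37.9 to 39.5% of the replicate 2 list on each of the 5 chromosomes. The GC content of the 200 bp at the summit had a median of 35% in both classes. The nearest gene was protein-coding for 2417 replicate 2 only peaks and of another kind for 280 (10.4%), compared with 11.4% of the peaks in both replicates, a difference that did not pass the test (exact test, adjusted p = 0.218). These 280 included 199 long non-coding RNA genes, 29 tRNA genes and 6 microRNA genes.

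Most genes nearest to a replicate 2 only peak were nearest to no replicate 1 peak. Each peak was assigned to its nearest gene. Here and below, a gene has a replicate 1 peak when it was the nearest gene of one. A gene said to have none may still lie close to a replicate 1 peak assigned to a neighbouring gene. Of all 33056 annotated genes, 7.48% were nearest to a replicate 2 only peak and 13.0% were nearest to a replicate 1 peak. Of the 2473 genes nearest to a replicate 2 only peak, 679 (27.5%, CI 25.7 to 29.3%) were also nearest to a replicate 1 peak, and 1794 (72.5%) were not. Counted by peaks, 778 of 2697 (28.8%, CI 27.1 to 30.6%) lay at a gene with a replicate 1 peak. Of the 4237 peaks in both replicates, 1480 (34.9%) lay at a gene with a further replicate 1 peak that they did not overlap. The fold enrichment of the replicate 2 only peaks was nearly the same at genes with a replicate 1 peak (median 2.95) and at genes without (median 2.98).

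Where a gene had both, the gap between its replicate 2 only peak and its nearest replicate 1 peak had a median of 1028 bp and quartiles of 443 and 2020 bp. The most frequent layout was a replicate 2 only summit inside the gene with the strongest replicate 1 summit upstream of it, in 144 of the 778 cases (18.5%), followed by both summits upstream in 128 (16.5%). Most genes had a single replicate 2 only peak (2277 of 2473), and 5 genes had 4 or more. CSLC04, which encodes a glucan synthase that makes the xyloglucan backbone, had 6, with fold enrichments from 2.13 to 3.3, spread from 2422 bp upstream of its TSS to 2586 bp downstream, beside 2 replicate 1 peaks. AT1G21050, a gene of the MIZU-KUSSEI-like family of unknown function, had 4 and no replicate 1 peak. BME3, which encodes a GATA factor that promotes seed germination, ESE3, an ethylene-responsive AP2/ERF gene, and PFD3, which encodes a subunit of the prefoldin chaperone, had 4 each beside 1 or 2 replicate 1 peaks. At PFD3, a gene of 2443 bp, all 4 summits lay past the gene end, from 4598 to 6138 bp downstream of the TSS.

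The replicate 2 only peak with the highest fold enrichment, 5.22 (−log10 q 13.5), was at chr1:9938813-9939086 in the RNA gene AT1G06147. Its closest coding neighbour was RLP4, with the summit at -1003 bp from the TSS, which encodes a receptor-like protein. The next, with 5.04, lay 37 bp upstream of the TSS of AT5G51790, a basic helix-loop-helix gene that had 2 replicate 1 peaks. The peak at SPL10, a regulator of the transition from the juvenile to the adult shoot, had a fold enrichment of 4.99, and its summit lay 831 bp downstream of the TSS in an exon outside coding sequence. The peak nearest to TON1A had 4.97 and the highest −log10 q of all 2697 peaks, 18.1, but its summit lay 2486 bp upstream of that gene, whose product organizes cortical microtubules before division. The remaining 6 of the top 10 lay at GDPD4, a phosphodiesterase family gene (4.94), at IAA6 (4.9), at the RNA gene AT5G08455 next to HAP8 (4.89), at HIR2, a gene of the hypersensitive induced reaction family (4.88), at a tRNA gene for leucine, AT5G09975 (4.88), and at FAD3, which encodes the desaturase that makes linolenic acid in the endoplasmic reticulum (4.85). Of these 10 genes, AT5G51790, HIR2 and FAD3 had a replicate 1 peak, and none of the 10 peaks overlapped an SCL28 peak. The other 7 genes were nearest to no replicate 1 peak, although such a peak lay 577 bp from the replicate 2 only peak nearest to TON1A.

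To describe the nearest genes by function, 22 lists of 606 symbols were used, of which 576 were matched to an annotated gene by name. Of these genes, 117 (20.3%) were nearest to a replicate 2 only peak, of which 62 had no replicate 1 peak. Among all 27444 protein-coding genes, the share nearest to a replicate 2 only peak was 8.03%. This is the share to set beside each count of listed genes below. The listed genes were also more often nearest to a replicate 1 peak than protein-coding genes in general, with 30.9% against 13.8%. Neither share was tested, and the listed genes were not matched to the rest for gene length or for the room between genes.

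**Figure D4:**
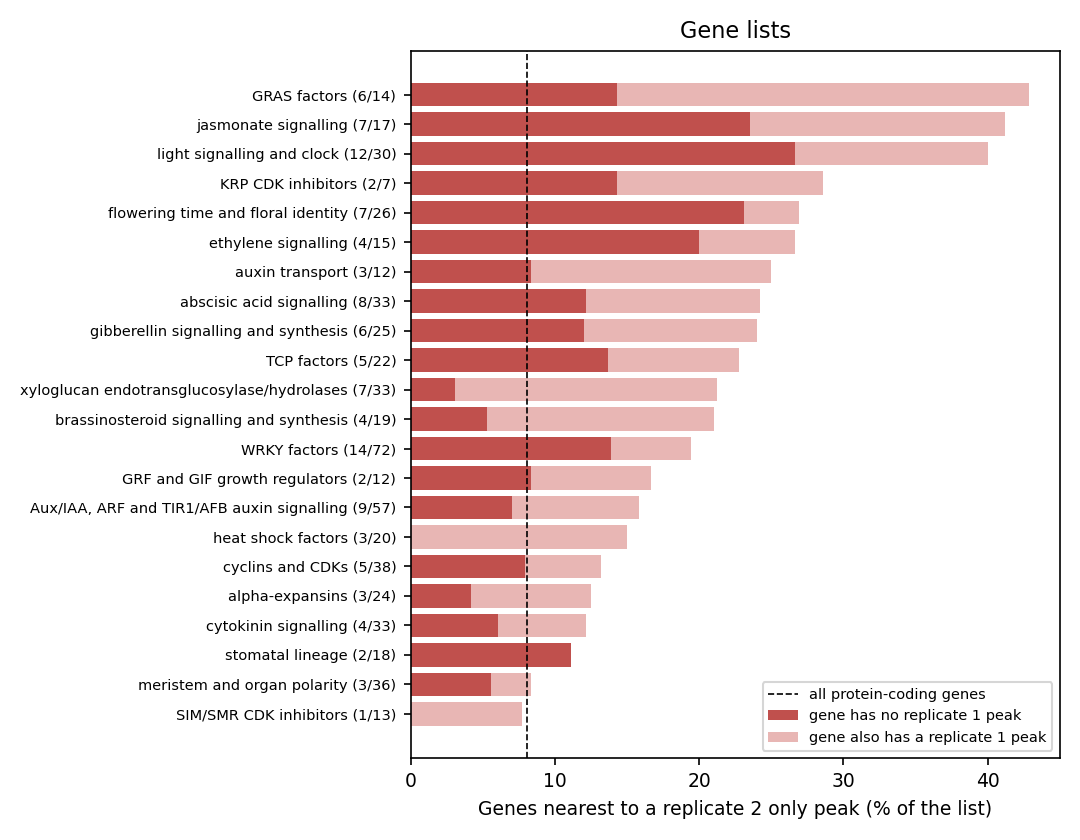
Share of the genes in each of 22 functional lists that were nearest to a replicate 2 only AtSMOS1 peak, in percent, split into genes without (dark) and with (light) a replicate 1 peak, with the counts behind each name and the 8.03% of all protein-coding genes as a dashed line. The GRAS, jasmonate and light and clock lists have the longest bars, at 42.9%, 41.2% and 40%, but only 14 of the 27 GRAS symbols were matched.

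Among the CDK inhibitors, 13 of 17 SIM/SMR symbols and all 7 KRP symbols were matched to annotated genes. The shares nearest to a replicate 2 only peak were 7.69% for SIM/SMR and 28.6% for KRP genes, beside 8.03% of all protein-coding genes, and neither share was tested against it. Of the 13 SIM/SMR genes, SMR4 alone was nearest to a replicate 2 only peak, at chr5:444278-444711 with a fold enrichment of 4.22, whose summit lay 2414 bp upstream of the TSS. SMR4 also had a replicate 1 peak, and 6 of the 13 were nearest to a replicate 1 peak. Of 7 KRP genes, KRP1 (fold enrichment 3.2, summit 414 bp past the gene end) had a replicate 1 peak, and KRP7 (3.05, 527 bp past the gene end) had none. The gene of AtSMOS1 itself had no replicate 2 only peak. SCL28 was the nearest gene of 1, with a fold enrichment of 3.12 and a summit 2651 bp past its end, and it had a replicate 1 peak as well. Among 38 cyclin and CDK genes, 5 were nearest to a replicate 2 only peak (13.2%), and the share nearest to a replicate 1 peak was also 13.2%. CYCA2;3, which encodes an A-type cyclin that restrains endoreplication (3.28), CYCB2;3, a mitotic B-type cyclin gene (2.9), and CYCD3;1, a cyclin gene of cell cycle entry that responds to cytokinin (2.27), had no replicate 1 peak, and CYCD1;1 (3.18) and the CDK-activating kinase gene CDKD;2 (2.86) had one.

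In auxin signalling, 9 of 57 genes were nearest to a replicate 2 only peak, and 4 of these had no replicate 1 peak. They were IAA6 (4.9), whose summit lay 1052 bp upstream of the TSS, ARF8 (3.07), whose summit lay 131 bp upstream, ARF10 (2.8) and IAA26 (2.55). The IAA genes encode repressors that are degraded when auxin is present, and the ARF genes encode the factors that they bind. ARF6, the close relative of ARF8, had 4 replicate 1 peaks, and its replicate 2 only peak (3.19) was 1000 bp from the nearest replicate 1 peak. Among the auxin transport genes, LAX3, an influx carrier gene, had a replicate 2 only peak 98 bp upstream of its TSS (3.42) and no replicate 1 peak, and the efflux carrier gene PIN4 (2.56) had both. For brassinosteroids, the count was 4 of 19, namely the synthesis gene CPD (3.16), the transcription factor gene BES1 (2.72), the inhibitor gene BKI1 (2.57) and the receptor gene BRI1 (2.4), and of these BES1 alone had no replicate 1 peak.

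In abscisic acid signalling, 8 of 33 genes were nearest to a replicate 2 only peak. The receptor gene PYL5 had 3, with fold enrichments of 4.15, 2.69 and 2.23, and had a replicate 1 peak, while PYL6 (3.62) had none. The phosphatase genes AHG3 (3.43) and HAI2 (3.24), whose products turn the pathway off, had a replicate 1 peak each. In jasmonate signalling, 7 of 17 genes were counted, 4 of them without a replicate 1 peak. JAZ1, a repressor gene that jasmonate induces, had 2 peaks (3.57 and 2.64) inside the gene, and JAZ10 had 2 as well (3.22 and 2.87). Although JAZ1 was nearest to no replicate 1 peak, such peaks lay 543 and 637 bp from its replicate 2 only peaks. MYC3, which encodes a factor that the JAZ proteins bind, had 1 (2.6), 91 bp past its TSS. The lowest fold enrichment in the list was at JAZ3 (1.8), and that peak overlapped a peak of the input. The ethylene genes ERF1 (3.36), ERS2 (2.61) and ETR1 (2.58), of which ERS2 and ETR1 encode receptors, had no replicate 1 peak, and EIL1 (2.23) had one. Of 33 cytokinin genes, 4 were counted (12.1%, beside 8.03% of all protein-coding genes). All of them were type-A response regulators that dampen the response, and ARR7 (3.66) and ARR8 (3.53) had no replicate 1 peak. Of 25 gibberellin genes, 6 were counted, among them the receptor gene GID1B with 3 upstream peaks (4.05, 2.86 and 2.78), GA20OX2, which encodes an enzyme of gibberellin synthesis (3.94), and GID1A (2.74).

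Light signalling and clock genes were counted 12 times in 30, and 8 of the 12 had no replicate 1 peak. The peaks at ELF4, a clock gene of the evening complex (3.36), at HFR1, which restrains growth in shade (3.23), at the growth-promoting factor gene PIF3 (2.66 and 2.6), at HYH (2.46) and at the morning clock gene CCA1 (2.32) all had no replicate 1 peak at the gene. The summits at ELF4, HFR1, HYH and CCA1 lay 100, 15, 104 and 250 bp upstream of the TSS. CRY1, which encodes a blue light receptor (3.33), and PIF4 (3.16) had replicate 1 peaks. Flowering genes were counted 7 times in 26. SVP, which encodes a MADS-box repressor of flowering, had a peak 992 bp upstream of its TSS (4.35), and CO, the photoperiod gene (3.3), FUL (2.35), FD (2.28), SPL15 (2.18) and FT (2.02) were further genes without a replicate 1 peak, while SOC1 (2.82) had one.

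Of 72 WRKY genes, whose products mostly act in defence and stress, 14 were nearest to 18 replicate 2 only peaks, and 10 of the 14 had no replicate 1 peak. WRKY40 had 3, at 4.63, 2.87 and 2.57, and its strongest summit lay 38 bp upstream of the TSS. WRKY18 had 2 (3.78 and 2.77) and WRKY60 had 1 (3.82). WRKY18 and WRKY40 were also nearest to 4 and 2 replicate 1 peaks, and WRKY60 to none. Of 33 xyloglucan endotransglucosylase/hydrolase (XTH) genes, which remodel the cell wall, 7 were counted, and 6 of these also had a replicate 1 peak, for example XTH23 (3.69 and 1.95) and XTH7 (3.37 and 2.86). Of 24 alpha-expansin genes, EXPA3 (3.22), EXPA5 (3.02) and EXPA10 (2.98) were counted, a share of 12.5% beside 8.03% of all protein-coding genes. EXPA5 had no replicate 1 peak.

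Among regulators of organ growth, GRF2 (4.1) had a replicate 1 peak, and GRF3 (3.78), which like GRF2 encodes a growth-regulating factor that promotes leaf cell number, had none. Of 22 TCP genes, 5 were counted, led by TCP19 (3.38) and TCP7 (3.13 and 2.71). Of the 14 GRAS genes matched, from 27 symbols, 6 were counted, namely SCL13 (3.55), SCL3 (3.37), PAT1 (3.16), SCL28, SCL27 (2.62) and SCL5 (2.44), and SCL27 and SCL5 had no replicate 1 peak. Of 18 stomatal lineage genes, EPFL9, which encodes the stomata-promoting peptide stomagen (4.3), and the receptor kinase gene ER (2.68) were counted (11.1%), both without a replicate 1 peak. Of 36 meristem and polarity genes, KAN (3.09), CUC3 (2.87) and KAN3 (2.52) were counted. This share of 8.33% was close to the 8.03% of all protein-coding genes. Of 20 heat shock factor genes, HSFB2A (3.16), HSFA3 (2.66) and HSFB1 (2.35) were counted (15%), and all 3 had a replicate 1 peak.

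Gene families were also taken from the product names. Among all protein-coding genes, the share nearest to a replicate 2 only peak was 8.03%. AP2/ERF genes with an integrase-type product name were nearest to one in 23 of 93 cases (24.7%, CI 16.4 to 34.8%). For bZIP genes the count was 11 of 63 (17.5%, CI 9.05 to 29.1%), and for kinase genes it was 144 of 1388 (10.4%, CI 8.82 to 12.1%). At the other end were genes of self-incompatibility or defensin-like proteins, with 3 of 175 (1.71%), F-box genes, with 14 of 653 (2.14%, CI 1.18 to 3.57%), genes of pentatricopeptide proteins, with 13 of 313 (4.15%), and ribosomal protein genes, with 19 of 344 (5.52%). The shares nearest to a replicate 1 peak were 31.2% for AP2/ERF genes, 17.5% for bZIP genes, 19.0% for kinase genes and 5.82% for F-box genes. Among all protein-coding genes this share was 13.8%. These families were not tested.

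Overlap with SCL28 was less frequent among the replicate 2 only peaks than among the peaks in both replicates. Of the 6934 replicate 2 peaks, 4.53% overlapped an SCL28 peak of SCL28 replicate 1, 3.87% one of SCL28 replicate 2, and 4.83% one of either. Among the replicate 2 only peaks, 41, 35 and 45 of 2697 did, so that the share for either was 1.67% (CI 1.22 to 2.23%). Among the peaks in both replicates, 290 of 4237 did (6.84%, CI 6.1 to 7.65%, two-sided Fisher's exact test, adjusted p = 4.64e-25). Among the AtSMOS1 peaks called in replicate 1 alone, the share was also low, with 2.33% (CI 1.5 to 3.45%). The replicate 2 only peaks are weaker and narrower than those in both replicates. The comparison was repeated with windows of equal width, which does not adjust for strength. With 200 bp at each summit, a setting added after the data were seen, 1.67% and 6.75% overlapped (exact test, adjusted p = 2.76e-24).

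The comparison was also described by peak strength, without a test. At a −log10 q below 3, 1.07% (CI 0.349 to 2.48%) of the replicate 2 only peaks and 2.44% (CI 0.668 to 6.13%) of the others overlapped an SCL28 peak. At a −log10 q from 3 to 5, 1.54% (CI 0.916 to 2.42%) of the replicate 2 only peaks and 2.08% (CI 1.14 to 3.46%) of the others overlapped an SCL28 peak. From 5 to 8, the shares were 2.34% (CI 1.43 to 3.59%) and 4.5% (CI 3.43 to 5.77%), and from 8 to 12 they were 1.08% (CI 0.131 to 3.85%) and 6.51% (CI 5.14 to 8.12%). At 12 and above, 0 of 21 replicate 2 only peaks overlapped one, which allows a share of up to 16.1% by the exact interval, and 141 of 988 others did (14.3%).

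**Figure D5:**
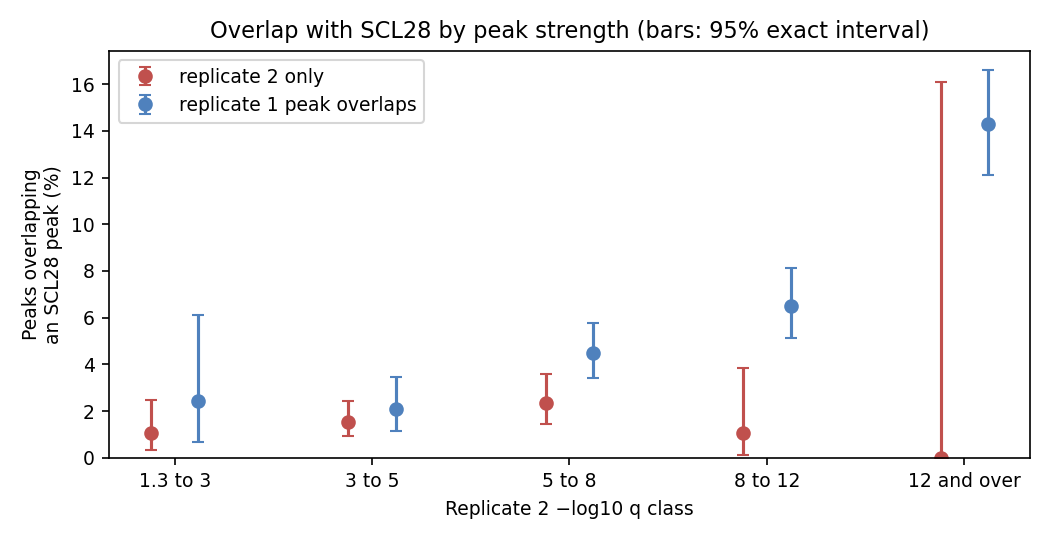
Share of AtSMOS1 replicate 2 peaks that overlap an SCL28 peak of either SCL28 replicate, in percent, by −log10 q class, for replicate 2 only peaks (red) and peaks that overlap a replicate 1 peak (blue), with 95% exact intervals as bars. The blue share lies between 2.08% and 14.3% and is highest in the strongest class, and the red share stays between 0 and 2.34%.

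Seen from SCL28, the replicate 2 only peaks added few sites. Of the 488 SCL28 peaks of replicate 1, 289 (59.2%) overlapped an AtSMOS1 replicate 1 peak, and 40 more (8.2%) overlapped a replicate 2 only AtSMOS1 peak and no replicate 1 peak. The SCL28 peaks of replicate 1 that overlapped a replicate 2 only peak had a median SCL28 fold enrichment of 3.97 (2.51 to 10.1, 41 peaks), compared with 5 (1.97 to 33.2, 269 peaks) for those that overlapped an AtSMOS1 peak of both replicates. The summits of both proteins lay close together, with a median distance of 54 bp in replicate 1 and 48 bp in replicate 2.

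In both SCL28 replicates, 31 of the 45 replicate 2 only peaks overlapped an SCL28 peak. The strongest SCL28 signal among them was at ACT12, an actin gene, at chr3:17130242-17130622, where SCL28 had a fold enrichment of 10.1 and 8.65 in replicates 1 and 2 and AtSMOS1 had 3.44 in replicate 2. At AT2G40460, a gene of the major facilitator superfamily of transporters, the values were 8.48 and 8.19 for SCL28 and 3.27 for AtSMOS1, 127 bp upstream of the TSS. At AT1G80700 and AT1G50660, whose product names read stress response NST1-like and actin cytoskeleton-regulatory complex pan-like, SCL28 had 7.83 and 7.36 in replicate 1, and AtSMOS1 had 3.02 and 2.75. AT5G42530, of unknown function, had 7.15, and its SCL28 summit was 4 bp from the AtSMOS1 summit. The next were the RNA genes AT2G08150 and AT3G05705, both with 7.12, and PFN2, which encodes the actin-binding protein profilin (6.26), AT1G68580 (5.9) and the RNA gene AT2G26692 (5.67). At 8 of these 10 genes there was no replicate 1 AtSMOS1 peak, the exceptions being AT2G40460 and AT1G68580. All 10 peaks had an AtSMOS1 fold enrichment between 2.32 and 3.53. With 1 SCL28 replicate alone, the overlap included the clock gene PRR9 (SCL28 7.36 in replicate 1, AtSMOS1 2.75).

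Overlap with the input was rare. The study's reporting summary names the input as the control of the peak calling, which by itself makes such overlap less likely. Its rarity is therefore not an independent result. Of the 6934 replicate 2 peaks, 0.534% overlapped an input peak, and among the replicate 2 only peaks 9 of 2697 did (0.334%, CI 0.153 to 0.633%), compared with 28 of 4237 (0.661%), a difference that did not pass the test (exact test, adjusted p = 0.149). The 9 included the peaks at CSLA11 (AtSMOS1 fold enrichment 4.78), a cellulose synthase-like gene, and at JAZ3, and the peak at AT5G35430 whose motif is printed above.

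The motif of the study was more frequent in the replicate 2 only peaks that overlapped SCL28, but most of these peaks lacked it. The whole motif of the study stood in 11 of 2697 replicate 2 only windows (0.408%, CI 0.204 to 0.729%), in 53 of 4237 windows of peaks in both replicates (1.25%, CI 0.938 to 1.63%), in 0.19% of all 200 bp tiles of the genome and in 0.166% of the 200 bp before all TSSs. Of the 11 replicate 2 only peaks with it, 9 overlapped an SCL28 peak, and of the 2686 without it, 36 did (1.34%). Put the other way, 9 of the 45 replicate 2 only peaks with an SCL28 overlap held it (20%, CI 9.58 to 34.6%), close to the 50 of 290 (17.2%) among peaks in both replicates. Without an SCL28 overlap, 2 of 2652 held it. The shorter core GGATNC, which every full motif contains, was in 57.8% of the 45 and in 13.6% of the other replicate 2 only windows, against 19.3% of all tiles and 13.4% of the 200 bp before all TSSs. As the motif was found by the study in common peaks of both proteins, its presence there is not independent evidence.

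The other motifs searched, on both strands, were common elements of plant promoters. The G-box CACGTG was in 348 of 2697 replicate 2 only windows (12.9%, CI 11.7 to 14.2%) and in 694 of 4237 windows of peaks in both replicates (16.4%, CI 15.3 to 17.5%), compared with 2.19% of all tiles and 5.07% of the 200 bp before all TSSs. Where present, it lay at a median of 42 bp from the replicate 2 only summit and 39 bp from the others. By −log10 q class, from the weakest to the strongest, the replicate 2 only windows held it in 11.1%, 12.3%, 13.6%, 17.8% and 14.3% of cases, and the others in 18.9%, 14.7%, 15.7%, 17.8% and 16.4%. The replicate 2 only share was thus lower in 4 of the 5 classes and equal in that from 8 to 12. TGGGCC, the core of the site II element that TCP factors can bind, was in 12% of the replicate 2 only windows, 9.51% of the others and 11.4% of the windows before all TSSs. AACGG, the core of the element that MYB3R factors bind at mitotic genes, was in 19.1%, 17.6% and 17.2%. The telomere-like box AAACCCTAA was in 1.19%, 0.779% and 2.21%. These shares are a description, and a match does not show that a factor sits there.

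The mirror set, the 1030 AtSMOS1 peaks of replicate 1 that overlap no replicate 2 peak, is given for comparison. Their fold enrichment in replicate 1 had a median of 3.33 (1.53 to 5.81), compared with 3.65 for all replicate 1 peaks. A promoter summit was found for 51% (CI 47.9 to 54.1%), a summit inside a gene for 36.9% (CI 33.9 to 39.9%) and an overlap with SCL28 for 2.33% (CI 1.5 to 3.45%). The G-box was in 9.81% and TGGGCC in 13.2% of their summit windows. The nearest gene had a replicate 2 peak for 339 of them (32.9%).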

How the data were processed

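ChIP-Seq of AtSMOS1-GFP and SCL28-GFP (2 replicates each) and 1 WT input gave 5 deposited lists of narrow peaks. Per the submitters' processing notes, the authors used Trimmomatic 0.38, Bowtie2 2.3.5, SAMtools 1.9 and MACS2 2.2.7.1 on TAIR10, and called peaks for each sample at a q value cutoff of 0.05. The study's text names Bowtie in its methods and a broad peak mode elsewhere, while the deposited lists are in narrow format. The fold enrichment is a ratio at the summit over the local background, as deposited by the authors. Significance was deposited by the authors as −log10 of the p value and of the q value, and the deposited score, derived from q, was not used. Peak lists hold no read counts, so that the precision is that of counting peaks, given as exact (Clopper-Pearson) 95% intervals that cover counting error only.

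Samples were grouped as labelled. Peaks on organelle genomes were left out. Overlap meant 1 bp or more. Genes were the 33056 of the RefSeq annotation on chromosomes 1 to 5 (27444 protein-coding), without pseudogenes. The nearest gene was that with the smallest gap to the peak, ties going to the gene nearest the summit and then to the nearest TSS. For 5 kinds of share, Fisher's exact test (two-sided) was applied, with Benjamini-Hochberg adjustment over the 5. Motifs were searched in 200 bp centred on summits. The genes named were the 10 members of highest fold enrichment, the 10 with the highest SCL28 signal among those overlapping SCL28 in both replicates, genes of the 22 lists, genes with the most members, members at the edge of the rule and members with the study's motif. The members and lists were chosen with earlier results of these data known. Analyses used python 3.11.15, numpy 2.4.6, scipy 1.17.1 and matplotlib 3.10.9, and the functions were tested on simulated data. The alternatives were other overlaps, q cutoffs, promoter lengths, gene sets and summit definitions, each SCL28 replicate left out, and peaks at input peaks or non-coding genes left out. Some items are not reported here.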

Additional observations from a re-analysis of the deposited data

How the results depend on the processing

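Of 48 alternatives over the 6 shares, 39 kept the direction and the side of the threshold or, for the untested share, stayed within its interval. The values are differences in percentage points, replicate 2 only minus peaks in both replicates. For SCL28 overlap, all 11 alternatives passed, from -5.93 to -3.95, and leaving out each SCL28 replicate gave -4.92 and -4.2. The promoter difference passed with a 50% overlap of both peaks (3.21) and with promoters of 500 bp (3.01), and turned to -0.26 with 2 kb. The gene body difference failed at a −log10 q of at least 5 (3.81). The input difference passed with the 50% overlap (-0.444) and turned to 0.0302 with 200 bp windows, which were added after the data were seen. The cause of these changes was not tested. The share at genes with a replicate 1 peak moved to 27.1% when a replicate 1 peak within 200 bp also counted as shared, to 32.1% when any gene with a replicate 1 peak within 1 kb counted, and to 32.4% with protein-coding genes alone. No paired analysis was possible because the tests compare classes of peaks and no replicate samples enter them. Signal under the calling threshold is not in the lists, so that a missing replicate 1 peak does not show that AtSMOS1 was absent there.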
